A study of Mus musculus with 13 samples.

Results

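The Dppa genes, short for developmental pluripotency associated, are mouse genes transcribed in oocytes, preimplantation embryos, embryonic stem cells and germ cells. The 5 members taken up here are Dppa1, Dppa2, Dppa3, Dppa4 and Dppa5a, found by symbol in the deposited table of 31528 genes. All 5 passed the filter on low counts that left 21808 genes for testing. They were chosen because earlier results of these data had Dppa2 lower and Dppa5a higher in diapause than in E4.5 blastocysts. Levels against E4.5 are therefore given as description with no test, and tests of the members are given only between groups of day 5.5.

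In embryonic diapause the blastocyst stops growing and puts off implantation until conditions improve. RNA of whole B6D2F1 blastocysts (mixed C57BL/6 and DBA2J) was sequenced in 13 libraries of 6 groups, made with a kit for very low RNA input and without molecular identifiers. Of the groups of day 5.5, reduced KSOM (n = 3, wild type) was cultured in KSOM, a simple medium for preimplantation embryos, in which leucine, isoleucine, lysine, arginine, lactate and glucose were lowered. Depleted KSOM (n = 2, wild type) was cultured in KSOM that lacked its protein and carbohydrate components. Starvation blastocysts (n = 2, wild type) came from a starvation treatment. Targeted OVX blastocysts (n = 2) received guide RNAs against Nprl2 and Tsc2, are labelled as knockouts of both genes, and came from ovariectomy, as did OVX blastocysts (n = 2, wild type). E4.5 blastocysts (n = 2, wild type) came from the normal diet at day 4.5. Every diapause group was a day older than E4.5, no group in complete KSOM was analysed, and age, culture and treatment cannot be told apart in those contrasts. The labels do not say whether replicates came from separate mothers or cultures, so a p-value here speaks only of the spread among the libraries at hand.

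The 5 proteins do unlike things. Dppa2 and Dppa4 are nuclear partners with a SAP domain, a DNA-binding fold; in mouse embryonic stem cells they keep developmental gene promoters open to activation and switch on genes of the zygotic programme, Dux among them. Dppa3, also called Stella or PGC7, is stored in the egg and shields maternal DNA methylation in the zygote from loss through TET3. Dppa5a, or Esg1, is a small RNA-binding protein with a KH domain, and the role of Dppa1 is little known. Several of these genes were first grouped by an expression pattern like that of Pou5f1, which encodes OCT4.

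Total counts ran from 40678386 to 72125687 per library, with 56038082 and 48834738 in E4.5. The 5 Dppa genes together took between 0.875% and 3.36% of a library's counts. Between 19 and 20 of 20 epiblast genes, 12 to 14 of 14 trophectoderm genes and 11 to 12 of 12 primitive endoderm genes had counts in each library. Nprl2 had 13.9 and 28.6 CPM (counts scaled to a common library size by trimmed means of M values) in targeted OVX, against 38.0 and 36.5 CPM in OVX, and Tsc2 14.7 and 8.26 CPM, against 23.3 and 14.1 CPM. Neither passed the test between those groups (edgeR adjusted p = 0.55 and 0.58), and counts over a whole gene do not show whether it was edited. Summed CPM of 15 skeletal muscle genes lay between 1340 and 1620 in reduced KSOM and at 2170 in OVX replicate 1, and between 130 and 658 in the other libraries; E4.5 had no counts of Acta1, Myh1, Myh2, Myl1, Tnnt3, Tnnc2, Tnni2, Pvalb and Atp2a1. The 13 neutrophil genes summed to 1720 to 2130 CPM in reduced KSOM and 1020 CPM in OVX replicate 1, against 33.4 to 169 CPM elsewhere. In reduced KSOM this signal and the treatment cannot be told apart, and many values that use OVX are also given without its replicate 1. Where no such value is given, the OVX value includes that library. Summed levels of lineage genes differed too. Summed epiblast CPM was 987 to 1120 in reduced KSOM, 1780 to 1890 in depleted KSOM and 2270 to 2540 in starvation. It was 1230 to 1500 in targeted OVX and 1330 to 1850 in OVX, against 1750 to 1760 in E4.5. Summed primitive endoderm CPM was 871 to 946 in reduced KSOM, 1250 to 1340 in depleted KSOM and 822 to 988 in starvation. It was 420 to 748 in targeted OVX and 728 to 833 in OVX, against 957 to 1070 in E4.5. Summed trophectoderm CPM was 14000 to 25700 in reduced KSOM, 7990 to 9570 in depleted KSOM, 6940 to 14900 in starvation, 6240 to 8120 in targeted OVX and 9640 to 12600 in OVX, against 5490 to 7850 in E4.5. In reduced KSOM that sum does not stand for the list. There 6 of 13 tested genes had a fold change above 0, and the median log2 fold change was −0.28, beside 0.15 over all genes. The medians were 0.34 in depleted KSOM, 0.66 in starvation, 0.28 in targeted OVX and 0.65 in OVX, beside −0.09, 0, −0.16 and 0. Against E4.5, 2 of 13 tested trophectoderm genes were called in each diapause group. These were 1 higher and 1 lower in reduced KSOM, targeted OVX and OVX, and 2 higher in depleted KSOM and starvation. Of 12 primitive endoderm genes 0 were called in reduced KSOM, 2 in depleted KSOM, 1 in starvation, 0 in targeted OVX and 2 in OVX. Where 0 were called, 5 in reduced KSOM and 2 in targeted OVX had an unadjusted p under 0.05, beside 3304 and 3843 of all 21808 genes. DESeq2 called 3 and 2, beside 1780 and 2571 genes in all. By edgeR 1.13% of all genes were called in reduced KSOM, 5.51% in depleted KSOM, 2.21% in starvation, 2.66% in targeted OVX and 2.04% in OVX. The part of lineage make-up in the Dppa levels was not tested. In bulk RNA, fewer cells of a type and less RNA per cell cannot be told apart for any gene below.

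Dppa5a and Dppa3 have near-identical copies in the genome, so their counts could mix. On GRCm38, Dppa5a (ENSMUSG00000060461) is the protein-coding gene at chr9:78367052-78368177 on the minus strand, with 3 exons and a transcript of 619 bases. Dppa5b (chr9:78245550-78246135, plus strand) and Dppa5c (chr9:78271998-78272583, plus strand) are annotated as unprocessed pseudogenes, and each differs from Dppa5a at 9 of 297 aligned coding bases. Dppa3 (ENSMUSG00000046323, chr6:122626410-122630272, plus strand, 4 exons, 833 bases) has a transcribed processed pseudogene, Dppa3-ps (X:37625647-37626097, minus strand), which differs at 8 of 448 aligned coding bases. The 90-base coding stretches printed here, from GENCODE M21 transcripts, show how alike the copies are. Capitals mark the bases that differ, 5 in the Dppa5a pair and 3 in the Dppa3 pair, and Dppa5c has the Dppa5b letters in this stretch.
Dppa5a: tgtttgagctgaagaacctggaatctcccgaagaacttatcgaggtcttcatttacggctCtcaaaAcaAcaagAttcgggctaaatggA
Dppa5b: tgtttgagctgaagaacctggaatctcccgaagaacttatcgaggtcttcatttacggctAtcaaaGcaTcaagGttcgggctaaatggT
Dppa3: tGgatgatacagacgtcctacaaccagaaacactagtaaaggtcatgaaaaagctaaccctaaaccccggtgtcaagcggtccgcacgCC
Dppa3-ps: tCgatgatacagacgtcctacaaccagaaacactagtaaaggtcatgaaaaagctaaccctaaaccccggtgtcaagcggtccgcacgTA

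How reads were shared between copies is not given in the sources used here. Dppa5c had at most 0.137% and Dppa5b at most 0.0846% of the Dppa5a count in a library. Dppa3-ps had 0.945%, 1.46% and 1.2% of the Dppa3 count in reduced KSOM, none in depleted KSOM, 0.2% and 0.253% in starvation, 1.0% and 1.06% in targeted OVX, 1.76% and 0.234% in OVX, and 0.41% and 0.429% in E4.5. The copies were thus counted at under 2% of their parent gene in every library.

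**Figure D1:**
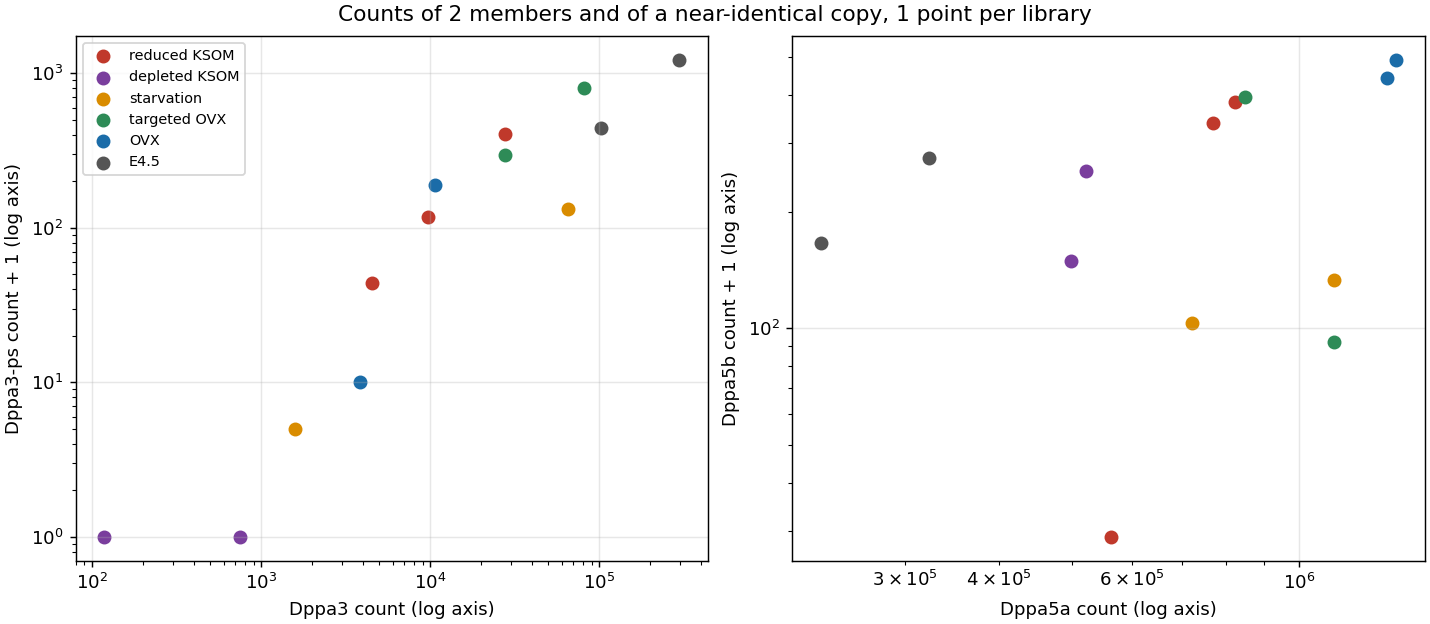
Counts of Dppa3-ps against Dppa3 (left) and of Dppa5b against Dppa5a (right) in each of the 13 libraries, coloured by group, on log axes with 1 added to the copy's count. Each point is a library; the copies stay below 2% of Dppa3 and below 0.1% of Dppa5a, and both depleted KSOM libraries have no Dppa3-ps count.

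Dppa2 and Dppa4 are neighbours. Dppa4 (ENSMUSG00000058550, chr16:48283733-48294237, plus strand, 7 exons, 1479 bases) lies 9671 bases before Dppa2 (ENSMUSG00000072419, chr16:48303908-48319723, plus strand, 8 exons, 2447 bases), and their transcripts are 62.0% identical over 350 aligned positions. Levels of single genes are given as the authors' FPKM, fragments scaled by transcript length and library depth, which allows genes of unlike length to be compared.

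Dppa2 had 18.73, 20.09 and 19.14 FPKM in reduced KSOM, 7.15 and 9.35 in depleted KSOM, 40.5 and 40.8 in starvation, 39.0 and 24.9 in targeted OVX, 7.25 and 13.8 in OVX, and 96.7 and 85.4 FPKM in E4.5. E4.5 was above every diapause library. Starvation was next, at 40.6 ± 0.163 FPKM (SD, n = 2), and targeted OVX lay below both starvation libraries, at 31.9 ± 10.0, but on CPM targeted OVX was higher by mean, at 107 ± 43.4, against 95.1 ± 6.35 in starvation. Reduced KSOM stood alone between them and the lowest groups, at 19.3 ± 0.698 (n = 3), while depleted KSOM, at 8.25 ± 1.56, overlapped OVX, at 10.5 ± 4.6. As log2 fold changes of the fitted counts against E4.5, Dppa2 had −1.58 ± 0.29 (SE) in reduced KSOM, −3.18 ± 0.35 in depleted KSOM, −0.93 ± 0.33 in starvation, −0.76 ± 0.33 in targeted OVX and −2.56 ± 0.34 in OVX. That is 9.04-fold lower in depleted KSOM and 5.9-fold lower in OVX, but 1.91-fold in starvation and 1.69-fold in targeted OVX. The targeted OVX value ran from −1.25 to −0.40 when 1 library was left out, the ends being those without targeted OVX replicates 1 and 2, and the OVX value was −2.47 without OVX replicate 1.

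Dppa4 had 25.6, 35.2 and 32.0 FPKM in reduced KSOM, 11.6 and 9.18 in depleted KSOM, 48.0 and 15.4 in starvation, 32.3 and 14.5 in targeted OVX, 7.95 and 17.0 in OVX, and 127 and 77.7 FPKM in E4.5. E4.5 was again above every other library, and depleted KSOM and OVX were again the lowest by mean, at 10.4 ± 1.7 and 12.5 ± 6.4 FPKM (SD, n = 2 each). The starvation libraries differed 3.12-fold from each other and the targeted OVX libraries 2.23-fold, and starvation replicate 2 and targeted OVX replicate 2 lay within the range of OVX. The log2 fold change against E4.5 was −1.08 ± 0.49 (SE) in reduced KSOM, −3.03 ± 0.59 in depleted KSOM, −1.43 ± 0.55 in starvation, −1.37 ± 0.55 in targeted OVX and −2.51 ± 0.58 in OVX. Without starvation replicate 1 the starvation value was −2.63, and without replicate 2 it was −0.80. Leaving out 1 library gave −1.43 to −0.63 in reduced KSOM and −2.20 to −0.85 in targeted OVX, and the OVX value was −2.34 without OVX replicate 1.

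Dppa3, the maternal factor, was the most uneven of the 5 genes. It had 81.0, 644 and 175 FPKM in reduced KSOM, 1.67 and 11.2 in depleted KSOM, 1037 and 22.4 in starvation, 1587 and 692 in targeted OVX, 241 and 54.8 in OVX, and 5286 and 2101 FPKM in E4.5. E4.5 was the highest and depleted KSOM the lowest group, with no overlap with any other. Between them the libraries of 1 group spread widely, 46.2-fold in starvation, 7.95-fold in reduced KSOM and 4.39-fold in OVX. In E4.5 replicate 1 Dppa3 ranked 10 among all genes by FPKM, and in depleted KSOM replicate 1 it ranked 8359. Its log2 fold change against E4.5 was −3.04 ± 1.29 (SE) in reduced KSOM, −8.88 ± 1.96 in depleted KSOM, −2.52 ± 1.47 in starvation, −0.94 ± 1.40 in targeted OVX and −3.78 ± 1.55 in OVX. The starvation value was −7.26 without replicate 1 and −1.55 without replicate 2, and the OVX value −5.83 without replicate 1. Leaving out 1 library gave −1.81 to −0.07 in targeted OVX.

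Dppa5a was the most abundant of the 5 genes in every library. It had 21133, 18779 and 19951 FPKM in reduced KSOM, 10192 and 11237 in depleted KSOM, 16414 and 22724 in starvation, 31572 and 30661 in targeted OVX, 43706 and 26865 in OVX, and 8293 and 6881 FPKM in E4.5. E4.5 was below every diapause library, and depleted KSOM was below every other diapause library. Targeted OVX lay within the range of OVX, and reduced KSOM, at 19954 ± 1180 FPKM (SD, n = 3), within that of starvation; on CPM every reduced KSOM library, at 17300, 13900 and 16600, was above both starvation libraries, at 10200 and 12800. By FPKM Dppa5a ranked 1 among all genes in both targeted OVX libraries, both OVX libraries, starvation replicate 2 and E4.5 replicate 1, and 13 and 10 in depleted KSOM. It took 2.16% and 2.09% of all counts in targeted OVX and 2.95% and 1.85% in OVX, against 0.578% and 0.476% in E4.5.

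Against E4.5 the log2 fold change of Dppa5a was 2.05 ± 0.45 (SE) in reduced KSOM, 0.78 ± 0.46 in depleted KSOM, 1.58 ± 0.46 in starvation, 2.77 ± 0.48 in targeted OVX and 2.97 ± 0.49 in OVX, or 7.84-fold in OVX. Its transcript is short, and the libraries differed in how abundance ran with transcript length: the rank correlation across genes was −0.24, −0.12 and −0.20 in reduced KSOM, 0.27 and 0.21 in depleted KSOM, 0.10 and 0.34 in starvation, −0.30 and −0.25 in targeted OVX, −0.21 and −0.04 in OVX, and 0.03 and 0.21 in E4.5. With offsets for length in the fit, the Dppa5a log2 fold changes against E4.5 became 1.60 in reduced KSOM, 1.49 in depleted KSOM, 2.18 in starvation, 2.07 in targeted OVX and 2.57 in OVX. The direction against E4.5 was thus the same in all 5 groups, while the order of the groups changed. Without OVX replicate 1 the OVX value was 2.08.

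Dppa1 (ENSMUSG00000064010, chr11:46607772-46629261, minus strand, 7 exons, 1575 bases) had 1314, 1516 and 1959 FPKM in reduced KSOM, 1592 and 1798 in depleted KSOM, 762 and 1324 in starvation, 1538 and 1642 in targeted OVX, 2245 and 2614 in OVX, and 516 and 863 FPKM in E4.5. On FPKM OVX was above every other library. On that scale reduced KSOM, depleted KSOM and targeted OVX overlapped one another, starvation reached into reduced KSOM, and starvation replicate 1 lay within the range of E4.5. On CPM reduced KSOM replicate 3, at 4140, was above OVX replicate 2, at 4000, and starvation overlapped neither reduced KSOM nor E4.5. The log2 fold change against E4.5 was 1.89 ± 0.37 (SE) in reduced KSOM, 1.60 ± 0.39 in depleted KSOM, 0.82 ± 0.38 in starvation, 1.95 ± 0.39 in targeted OVX and 2.47 ± 0.40 in OVX. The OVX value was 2.19 without OVX replicate 1, and starvation ran from 0.46 to 1.18 when 1 library was left out.

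On the CPM scale, no library of a diapause group overlapped E4.5 for 5 of 5 members in reduced KSOM, depleted KSOM, starvation and OVX, and for 4 of 5 in targeted OVX, where Dppa3 overlapped. Over all genes tested the groups did not overlap for 44.4% of genes in reduced KSOM, 55% in depleted KSOM, 44.5% in starvation, 48.9% in targeted OVX and 46.2% in OVX. The members were chosen on these contrasts, so nothing is read from that count. In each diapause group Dppa2, Dppa3 and Dppa4 had a negative and Dppa1 and Dppa5a a positive fold change, and these comparisons share the E4.5 libraries.

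**Figure D2:**
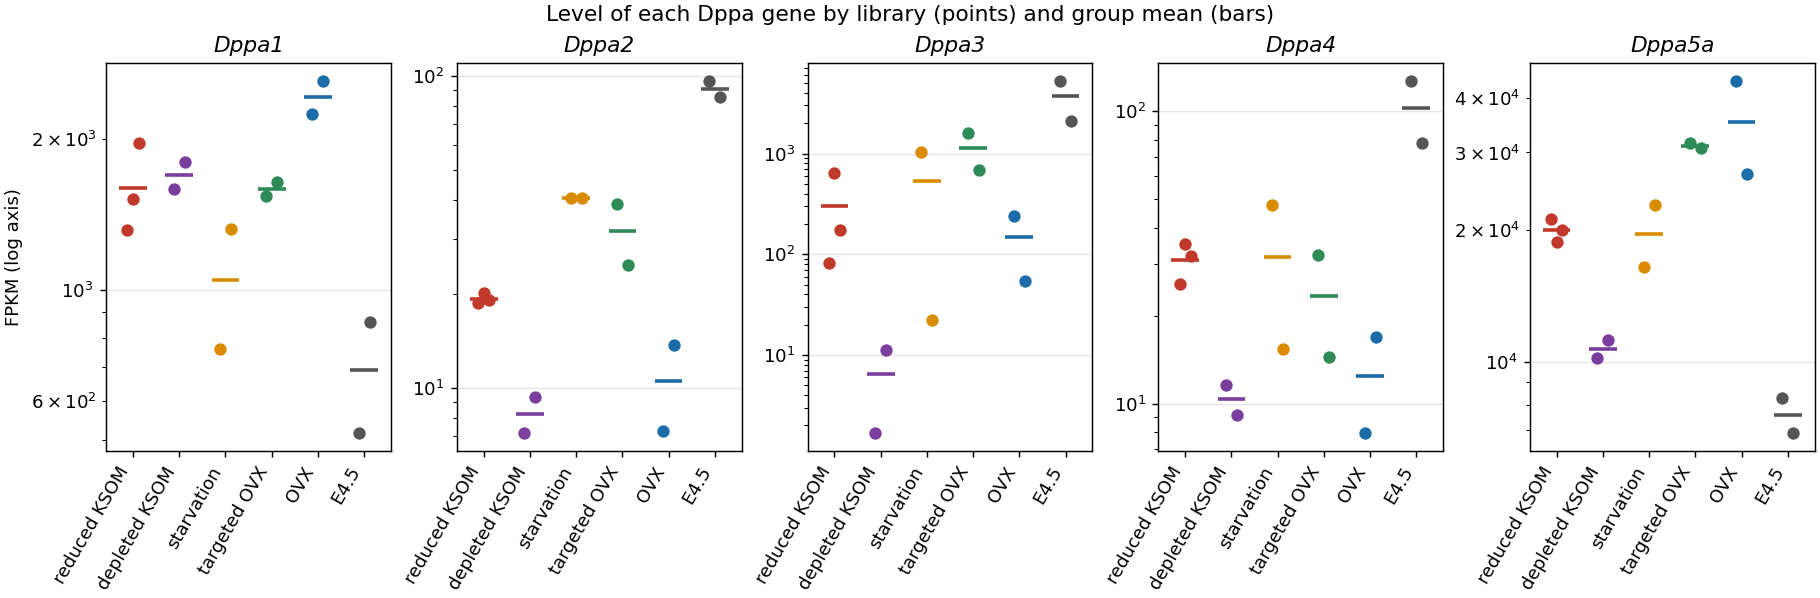
FPKM (log axis, scale differs by panel) of the 5 Dppa genes by group; each point is a library and each bar the group mean. E4.5 lies above every diapause library for Dppa2, Dppa3 and Dppa4 and below every one for Dppa5a, and the starvation libraries lie 46.2-fold apart for Dppa3.

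The groups of day 5.5 answer a separate question, whether ways of inducing diapause leave the Dppa genes at unlike levels. These tests use the same libraries, and those against OVX share its 2 libraries. Of the 5 members, 1 passed at an adjusted p under 0.05 (edgeR quasi-likelihood test, Benjamini-Hochberg over all genes) between reduced and depleted KSOM, where 5.79% of all genes were called, and the others are given as values. Dppa2 had 60.6, 58.8 and 62.9 CPM in reduced KSOM, against 17.0 and 23.2 CPM in depleted KSOM. Every reduced KSOM library was above both depleted KSOM libraries, and Dppa2 rose 3.02-fold, or by 1.60 ± 0.31 (SE) on the log2 scale (adjusted p = 0.018). The call did not survive leaving out any of the 5 libraries, with values from 1.39 to 1.83 and adjusted p from 0.056 to 0.19, or scaling by library totals (1.23, adjusted p = 0.062).

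Its partner Dppa4 had 56.2, 70.0 and 71.5 CPM in reduced KSOM, against 18.8 and 15.4 CPM in depleted KSOM, also without overlap, with a log2 fold change of 1.95 ± 0.53 (adjusted p = 0.052). For Dppa3 the log2 fold change was 5.84 ± 1.68 (adjusted p = 0.061) and for Dppa5a 1.27 ± 0.43 (adjusted p = 0.10), both without overlap. For Dppa1 it was 0.29 ± 0.35 (adjusted p = 0.66) and the groups overlapped. The groups thus stood apart for 4 of 5 members, beside 48.3% of all genes. Of the 5 members, 4 had an unadjusted p under 0.05, beside 4946 of all 21808 genes. DESeq2 called 4, beside 3617 genes in all. With length offsets the Dppa5a value was 0.11 (adjusted p = 0.89). Muscle and neutrophil genes were far higher in reduced KSOM, as given above, and their part in these differences was not tested.

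Against OVX no member was called by edgeR in any of the 4 contrasts. In reduced KSOM against OVX, where 0.202% of genes were called, 3 members had an unadjusted p under 0.05, beside 2067 of all 21808 genes. DESeq2 called 1 member, beside 721 genes in all. The groups stood apart on CPM for 2 of 5 members, beside 30.6% of all genes. These were Dppa2, with a log2 fold change of 0.98 ± 0.31 (adjusted p = 0.29), and Dppa4, with 1.43 ± 0.52 (adjusted p = 0.40). Without OVX replicate 1 the Dppa2 value was 0.89 and the Dppa4 value 1.26. Dppa5a had −0.92 ± 0.41 (edgeR adjusted p = 0.51), −0.97 with length offsets, and −0.03 without OVX replicate 1. In depleted KSOM against OVX (0.679% called), 3 members had an unadjusted p under 0.05, beside 3478 of all 21808 genes. DESeq2 called 2 members, beside 2008 genes in all. On CPM all 5 members were lower in both depleted KSOM libraries than in both OVX libraries, beside 42% of all genes whose groups stood apart, while on FPKM Dppa2 and Dppa4 overlapped. Dppa5a there had 6588 ± 632 CPM in depleted KSOM, against 30048 ± 19600 CPM in OVX (SD, n = 2 each), a log2 fold change of −2.19 ± 0.47 (adjusted p = 0.060). OVX replicate 1 weighs on that value: it was −1.30 without that library, and −2.73 without OVX replicate 2. With length offsets the Dppa5a value was −1.08 (edgeR adjusted p = 0.19).

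In starvation against OVX (0.225% called), 3 members had an unadjusted p under 0.05, beside 3262 of all 21808 genes. DESeq2 called 3 members, beside 1667 genes in all. The groups stood apart for 3 of 5 members, beside 34.2% of all genes. Dppa2 had 99.6 and 90.6 CPM in starvation, against 28.9 and 32.7 CPM in OVX, a log2 fold change of 1.63 ± 0.33 (adjusted p = 0.066), and 1.53 without OVX replicate 1 (adjusted p = 0.27). Dppa1 had 1210 and 1890 CPM in starvation, against 5740 and 4000 CPM in OVX, a log2 fold change of −1.65 ± 0.39 (adjusted p = 0.084). Dppa5a had −1.39 ± 0.46 (edgeR adjusted p = 0.19) with all libraries, and with length offsets −0.39 (edgeR adjusted p = 0.65). Without OVX replicate 2 the Dppa1 value was −1.89 and the Dppa5a value −1.93. Without OVX replicate 1 the Dppa1 value was −1.37 and the Dppa5a value −0.50.

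Targeting of Nprl2 and Tsc2 within ovariectomy left 0.0367% of genes called. Of the members 1 had an unadjusted p under 0.05, beside 2372 of all 21808 genes. On CPM the groups stood apart for 4 of 5 members, beside 32% of all genes, while on FPKM Dppa4 overlapped. The member with the low unadjusted p was Dppa2, with 138 and 76.7 CPM in targeted OVX, against 28.9 and 32.7 CPM in OVX. Both targeted libraries lay above both OVX libraries, with a log2 fold change of 1.80 ± 0.34 (edgeR adjusted p = 0.087). DESeq2 called 1 member, Dppa2 (adjusted p = 1.9e-05), beside 894 genes in all. Over the fits that left out 1 library the edgeR adjusted p ran from 0.048, without targeted OVX replicate 2, to 0.16. Dppa4 had a log2 fold change of 1.14 ± 0.55 (adjusted p = 0.47), Dppa3 of 2.83 ± 1.49 (adjusted p = 0.51), Dppa1 of −0.53 ± 0.38 (adjusted p = 0.59) and Dppa5a of −0.20 ± 0.45 (adjusted p = 0.96). Without OVX replicate 1 the values were 1.70 for Dppa2, 0.97 for Dppa4, 4.88 for Dppa3, −0.25 for Dppa1 and 0.68 for Dppa5a. With length offsets the Dppa5a value was −0.50 (edgeR adjusted p = 0.57). Leaving out any 1 library gave 0.30 to 1.66 for Dppa4, lowest without targeted OVX replicate 1, and 1.97 to 4.88 for Dppa3.

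**Figure D3:**
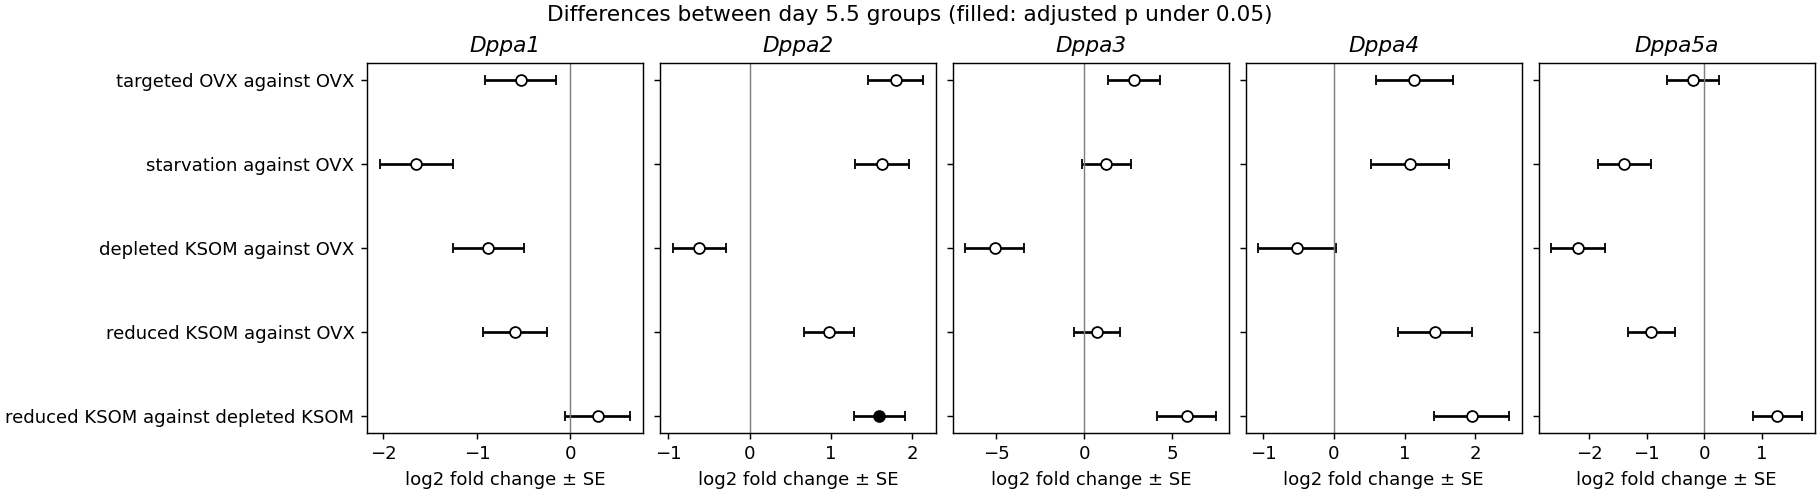
Log2 fold changes with standard errors of the 5 Dppa genes in the 5 contrasts between groups of day 5.5; filled points passed an adjusted p of 0.05. Dppa2 in reduced against depleted KSOM, at 1.60 ± 0.31, is the filled point, and the axis scale differs by panel.

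Correlations of log2 CPM between members across the 13 libraries are given as description, since the points share libraries and group differences. Dppa2 went with Dppa4 (Pearson r = 0.83) and with Dppa3 (0.80), and Dppa3 with Dppa4 (0.80). Dppa1 went with Dppa5a (0.81). Without the 2 E4.5 libraries, over 11, those values were 0.73, 0.73, 0.73 and 0.63. Other pairs changed more without E4.5. Dppa3 and Dppa5a had 0.10 over 13 but 0.69 over 11 libraries, above Dppa1 and Dppa5a over the same 11. Dppa2 and Dppa5a had −0.22 and 0.37, Dppa4 and Dppa5a −0.30 and 0.24, and Dppa1 and Dppa3 −0.31 and 0.13. Dppa1 stayed negative with Dppa2 (−0.63 and −0.32) and Dppa4 (−0.59 and −0.19).

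The genes most like each member were sought among 4917 genes of a mean log2 CPM of at least 4, again over the 13 libraries. Dppa4 was most like Rrm1 (r = 0.971), a subunit of the ribonucleotide reductase that makes DNA precursors, Gldc (0.963), of the glycine cleavage system, Cdca5 (0.931), which holds sister chromatids together, Fabp5 (0.93), a fatty acid carrier, and Ahcy (0.916), which removes S-adenosylhomocysteine. Dppa2 shared 2 of these, Ahcy (0.925) and Fabp5 (0.90), after Fancm (0.947), a DNA repair helicase, and before Pemt (0.895) and Zmpste24 (0.889). Dppa3 was most like Fbp2 (0.958), a gluconeogenic enzyme, and Mcm5 (0.945), of the replicative helicase, then Hpf1 (0.932), Ints1 (0.93) and Cks2 (0.923). Dppa5a was most like Tbca (0.954), a tubulin folding cofactor, Ndufs4 (0.933) and Ndufb9 (0.926), both of respiratory complex I, Tmsb4x (0.932) and Selenow (0.922). Dppa1 was most like Cryzl1 (0.943), Hint3 (0.921), Cystm1 (0.92), Plac1 (0.918), a placental gene, and Tmem126b (0.917). At the other end, Pou5f1 was among the 3 genes most opposite to Dppa1 (−0.936), after Cct6a (−0.945) and Rnf10 (−0.943). The most opposite genes were Mpv17 (−0.942), Hexa (−0.927) and Pccb (−0.922) for Dppa2, Mkln1 (−0.95), Etfdh (−0.949) and Crot (−0.948) for Dppa3, Svbp (−0.948), Ndrg1 (−0.945) and Nck1 (−0.932) for Dppa4, and Ubxn6 (−0.949), Fastk (−0.924) and Ddb1 (−0.918) for Dppa5a.

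The 6 listed genes known for expression like that of OCT4 were Pou5f1 itself, Pramel4, Pramel5, Pramel6, Pramel7 and Calcoco2. Against E4.5, 1 fell in reduced KSOM (1.13% of all genes called), 4 in depleted KSOM (5.51%), none in starvation (2.21%), 1 in targeted OVX (2.66%) and 2 in OVX (2.04%), and none rose. In starvation 3 had an unadjusted p under 0.05, beside 3658 of all 21808 genes, and DESeq2 called 2, beside 2299 genes in all. The median log2 fold change of the 6 was −2.26, −2.29, −1.37, −0.87 and −2.17 in that order of groups, beside 0.15, −0.09, 0, −0.16 and 0 over all genes. Pou5f1, the core pluripotency factor, had 17.6 ± 4.93 CPM in reduced KSOM (log2 fold change −2.46 ± 0.36, edgeR adjusted p = 0.014), 20.1 ± 7.75 in depleted KSOM (−2.26 ± 0.41, 0.0095), 27.6 ± 1.06 in targeted OVX (−1.81 ± 0.41, 0.037) and 11.2 ± 2.47 in OVX (−3.11 ± 0.43, 0.0047), against 96.7 ± 20.1 CPM in E4.5. The OVX call of Pou5f1 held without each library in turn, with adjusted p from 0.0061 to 0.026, and the other 3 did not, with adjusted p up to 0.074 in reduced KSOM, 0.099 in depleted KSOM and 0.20 in targeted OVX.

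The Pramel genes, which encode leucine-rich repeat proteins, split. Pramel5 was at 0 counts in both libraries of depleted KSOM (adjusted p = 0.0021) and at 1.95 ± 2.20 CPM in OVX (adjusted p = 0.026, up to 0.056 without 1 library), against 106 ± 10.6 CPM in E4.5. Pramel4 had 1.16 ± 0.30 CPM in depleted KSOM, against 71.8 ± 5.69 CPM in E4.5 (adjusted p = 0.020, at most 0.087 when any library was left out). Calcoco2, an autophagy receptor gene, had 315 ± 6.2 CPM in depleted KSOM, against 1570 ± 272 CPM in E4.5 (adjusted p = 0.038, from 0.052 to 0.16 when any library was left out). Pramel6 and Pramel7 were called in no group against E4.5. Between reduced and depleted KSOM, Pramel7 fell, with 50.0 ± 10.4 CPM in reduced KSOM, against 305 ± 55.5 CPM in depleted KSOM (adjusted p = 0.039, from 0.071 to 0.15 without 1 library), and Pramel5 rose, with 6.64 ± 1.85 CPM in reduced KSOM, against 0 counts in depleted KSOM (adjusted p = 0.0087).

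**Figure D4:**
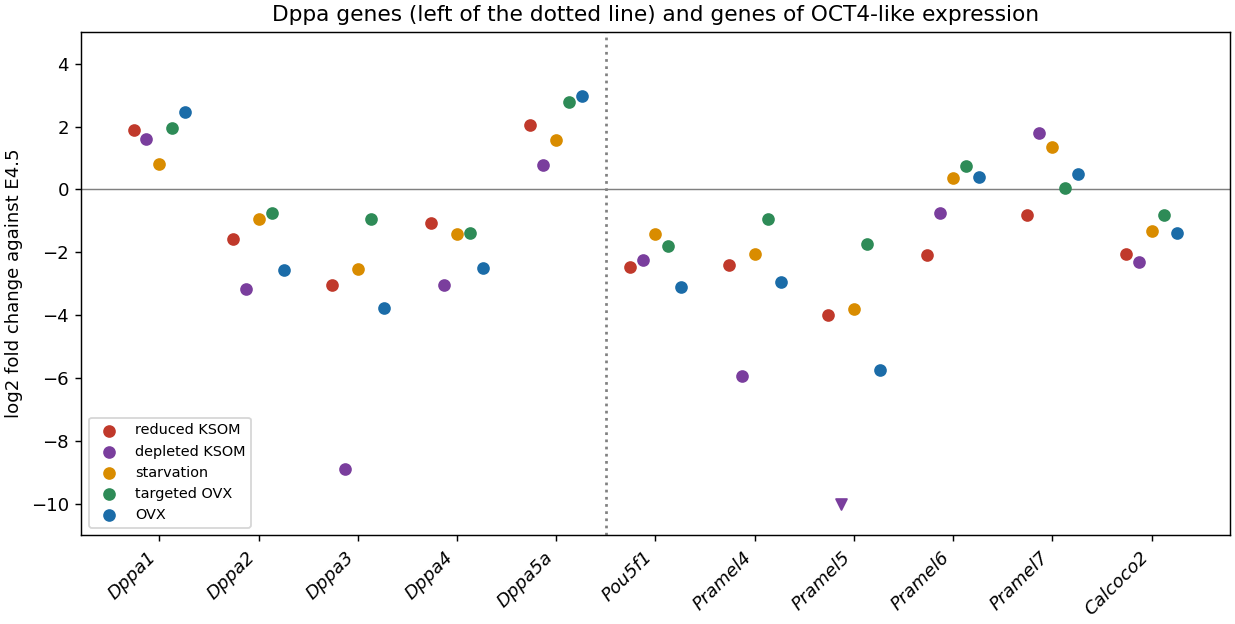
Log2 fold changes against E4.5 of the 5 Dppa genes (left of the dotted line) and of 6 genes with OCT4-like expression, coloured by diapause group. The triangle marks Pramel5 in depleted KSOM, which had no counts and whose fitted value lies off the axis; Dppa1 and Dppa5a lie above 0 in all 5 groups, and Pou5f1 below 0 in all 5.

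Genes that Dppa2 and Dppa4 are known to act on, those of the zygotic programme, were near absent. Of 20 listed, 8 were in the table, and 5 could be tested. Their summed level was at most 0.503 CPM in reduced KSOM, 0.653 in depleted KSOM, 0.471 in starvation, 1.24 in targeted OVX and 0.73 in OVX, against 2.47 and 3.97 CPM in E4.5. None was called by edgeR in any of the 10 contrasts. DESeq2 gave no adjusted p for 4 of the 5 in each contrast, so it could not call those, and it did not call the other. Against E4.5 the number at an unadjusted edgeR p under 0.05 was 3 in reduced KSOM, 1 in depleted KSOM, 1 in starvation and 0 in targeted OVX and OVX. Over all 21808 genes it was 3304, 4554, 3658, 3843 and 3435 in that order. Among 16 tested germline genes, which the Dppa2 and Dppa4 pair also touches in mouse stem cells, Rpl10l, a germline ribosomal protein gene, fell, with 4.65 ± 1.80 CPM in depleted KSOM, against 43.3 ± 16.4 CPM in E4.5 (log2 fold change −3.22 ± 0.42, edgeR adjusted p = 0.0022), and held that call without each library. Rpl10l was also lower in depleted KSOM than in OVX, where it had 38.4 ± 0.729 CPM (log2 fold change −3.04 ± 0.42, adjusted p = 0.011, up to 0.081 without 1 library; −3.03 without OVX replicate 1). Over all genes 5.51% were called in depleted KSOM against E4.5 and 0.679% against OVX. In starvation none of the 16 was called by edgeR against E4.5, beside 2.21% of all genes. There 6 were lower at an unadjusted p under 0.05, and 3658 of all 21808 genes had such a p in either direction. DESeq2 called 5, beside 2299 genes in all. Of the 17 listed, Ddx4, Syce1, Brdt, Slc25a31, Mov10l1 and Tex101 had no counts in either starvation library. Their E4.5 means were low too, at 1.45, 1.75, 0.54, 1.2, 2.93 and 0.106 CPM in that order. All of them but Ddx4 also had no counts in depleted KSOM replicate 1, and Tex101 had none in any depleted KSOM or OVX library. In this list 3 genes rose in reduced against depleted KSOM, where 5.79% of all genes were called. These were the meiotic chromosome genes Hormad1 (4.39 ± 0.98, edgeR adjusted p = 0.026) and Sycp3 (2.13 ± 0.54, 0.040) and Rpl10l (1.85 ± 0.38, 0.021). Each of these 3 calls was lost when 1 library was left out.

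Of 11 tested genes of DNA methylation, the process Dppa3 acts on, 2 fell against E4.5 in reduced KSOM, and 1 each in depleted KSOM, starvation, targeted OVX and OVX; none rose. Over all genes 1.13% were called in reduced KSOM, 5.51% in depleted KSOM, 2.21% in starvation, 2.66% in targeted OVX and 2.04% in OVX. Dnmt3b, a methyltransferase that sets new marks, had 51.8 ± 3.15 CPM in reduced KSOM (adjusted p = 0.041) and 34.1 ± 9.13 in depleted KSOM (adjusted p = 0.0086), against 179 ± 13.9 CPM in E4.5. Its relative Dnmt3a had 4.37 ± 0.729 CPM in starvation, against 27.5 ± 1.9 CPM in E4.5 (adjusted p = 0.020). Tet2, which oxidises methylcytosine, had 23.8 ± 3.58 CPM in reduced KSOM (adjusted p = 0.032) and 16.9 ± 4.75 in targeted OVX (adjusted p = 0.012), against 76.6 ± 14.2 CPM in E4.5, and Trim28, a corepressor that protects imprints, 163 ± 28.5 CPM in OVX, against 377 ± 18.3 CPM in E4.5 (adjusted p = 0.046). Each of these 6 calls was lost on leaving out 1 library or more. Between groups of day 5.5, 1 of the 11 was called, Tet2, which fell in reduced against depleted KSOM (log2 fold change −1.34 ± 0.33, adjusted p = 0.035, from 0.089 to 0.19 without 1 library).

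Of 10 tested genes of the KH family and the maternal complex of the egg cortex, to which Dppa5a is related by its KH domain, 1 was called in any contrast. Ooep, a KH gene that lies 7932 bases from Dppa5a, fell, with 18.5 ± 3.86 CPM in depleted KSOM, against 88.6 ± 25.0 CPM in E4.5 (log2 fold change −2.26 ± 0.48, adjusted p = 0.018, up to 0.13 without 1 library), while Dppa5a was 1.72-fold higher there. The number of the 10 at an unadjusted p under 0.05 against E4.5 was 2 in reduced KSOM, 5 in depleted KSOM, 1 in starvation, 3 in targeted OVX and 1 in OVX. Over all 21808 genes that number was 3304, 4554, 3658, 3843 and 3435. DESeq2 called 1, 5, 1, 2 and 1 of the 10, beside 1780, 3290, 2299, 2571 and 2017 genes in all. On the other side of Dppa5a, 11264 bases away, Gsta2, a glutathione transferase, had 9.78 ± 5.27 CPM in depleted KSOM (log2 fold change 2.61, adjusted p = 0.031), 19.2 ± 5.37 in starvation (3.58, 0.017), 72.3 ± 50.0 in targeted OVX (5.49, 0.0045) and 102 ± 44.1 in OVX (5.98, 0.0032), against 1.61 ± 0.774 CPM in E4.5. It rose in those 4 groups, and in reduced KSOM, at 4.64 ± 1.35 CPM, it did not pass (adjusted p = 0.22). The targeted OVX and OVX calls held without each library, and the others did not. Against OVX, Gsta2 fell in reduced KSOM (−4.45, adjusted p = 0.014, up to 0.13 without 1 library) and in depleted KSOM (−3.38, adjusted p = 0.035, up to 0.16). Without OVX replicate 1 these were −3.93 (adjusted p = 0.0073) and −2.85 (adjusted p = 0.10).

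The nearest tested genes to Dppa1 on its high-coordinate side, the predicted models Gm4926 at 7255 bases and Gm12173 at 17426 bases, rose against E4.5 in depleted KSOM, starvation and OVX. Gm12173 had 217 ± 18.4 CPM in depleted KSOM (adjusted p = 0.0043), 134 ± 33.3 in starvation (0.013) and 97.4 ± 14.9 in OVX (0.019), against 5.18 ± 4.53 CPM in E4.5; only the depleted KSOM calls of both models held without each library. Both fell in reduced against depleted KSOM, with 141 ± 42.7 CPM of Gm4926 in reduced KSOM, against 1860 ± 104 CPM in depleted KSOM (log2 fold change −3.72, adjusted p = 0.010, up to 0.053 without 1 library), a contrast in which Dppa1 had 0.29 ± 0.35. BC053393, 18540 bases away on the other side, rose in depleted KSOM, with 2790 ± 139 CPM, against 634 ± 299 CPM in E4.5 (adjusted p = 0.033, up to 0.20 without 1 library). Around Dppa3, the pluripotency genes Gdf3, 16323 bases away, and Nanog, 77217 bases away, were called in no contrast. Nanog had 12.1 ± 1.80 CPM in reduced KSOM, 27.3 ± 5.84 in depleted KSOM, 25.4 ± 20.9 in starvation, 9.31 ± 10.1 in targeted OVX, 12.5 ± 10.4 in OVX, and 41.2 ± 4.58 CPM in E4.5. Between Dppa3 and Nanog, at 65729 bases from Dppa3, the predicted Gm10420 fell, with 2.95 ± 1.85 CPM in starvation, against 88.3 ± 34.6 CPM in E4.5 (log2 fold change −4.90, adjusted p = 0.018, at most 0.041 without 1 library). Gm10639, 61527 bases from Dppa5a, had no counts in depleted KSOM, against 51.0 ± 1.45 CPM in OVX and 2.49 ± 0.0838 CPM in E4.5 (adjusted p = 0.011 for each contrast). It also fell in reduced KSOM, with 0.683 ± 0.398 CPM, against OVX (adjusted p = 0.041, up to 0.23 without 1 library). Without OVX replicate 1 the adjusted p was 0.0082 in depleted KSOM and 0.020 in reduced KSOM. Morc1, the next tested gene after Dppa2, was called in no contrast.

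Of 20 epiblast genes, 2 fell against E4.5 in reduced KSOM (1.13% of all genes called), 2 rose in depleted KSOM (5.51%), 2 fell in targeted OVX (2.66%), and none was called in starvation (2.21%) or OVX (2.04%). In starvation 3 and in OVX 8 had an unadjusted p under 0.05, beside 3658 and 3435 of all 21808 genes. DESeq2 called 3 in each, beside 2299 and 2017 genes. In depleted KSOM 2 were higher and 5 lower at an unadjusted p under 0.05. The median log2 fold change of the 20 was −0.85 in reduced KSOM, −0.58 in depleted KSOM and −0.86 in targeted OVX. It was 0.13 in starvation and −0.87 in OVX. Over all genes the medians were 0.15, −0.09, −0.16, 0 and 0. Fold changes above 0 numbered 6, 6, 8, 11 and 4 of 20. The 2 called in reduced KSOM were Klf5 (log2 fold change −1.23 ± 0.25, edgeR adjusted p = 0.037) and Tfcp2l1 (−1.14 ± 0.24, 0.044), both transcription factors of the naive state. The 2 called in targeted OVX were Tbx3 (−2.8, edgeR adjusted p = 0.041) and Tfcp2l1 (−1.16, 0.042). In depleted KSOM Nr0b1 rose (3.14, adjusted p = 0.016). Sall4, a zinc finger partner of OCT4, also rose in depleted KSOM, with 431 ± 35.5 CPM, against 101 ± 8.6 CPM in E4.5 (2.09 ± 0.51, adjusted p = 0.033). Sall4 fell in reduced against depleted KSOM, with 51.3 ± 10.5 CPM in reduced KSOM (−3.07 ± 0.45, adjusted p = 0.0068), opposite in sign to Dppa2, and that call held under every alternative. In the same contrast Klf4 (−1.95, adjusted p = 0.021) and Klf5 (−1.46, 0.012) fell too, and each of their calls was lost on leaving out 1 library or more. The calls against E4.5 were each lost when 1 library was left out.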

How the data were processed

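The deposited table holds an estimated count and an FPKM value, both computed by the authors, for each gene and library on GRCm38. Cutadapt 1.9, HISAT2 2.0.4 and StringTie 1.3.4d are named per the submitters' processing notes; the annotation and the counting tool are not given in the sources used here. Counts were rounded, filtered with filterByExpr (21808 of 31528 genes kept), scaled by trimmed means of M values (factors 0.671 to 1.414) and fitted with the edgeR 4.0.16 quasi-likelihood test in 1 fit of 13 libraries (R 4.3.3), with 7 residual degrees of freedom and a common biological coefficient of variation of 0.896. The threshold was a p of 0.05 after Benjamini-Hochberg adjustment over all tested genes; a standard error is the absolute log2 fold change over the root of F. Fold changes carry the small default prior count of edgeR, and log2 CPM for correlations a prior count of 2. The fit was also run on simulated data, of which no result is given here.

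The members and lists were chosen with earlier results of these data known. Named genes are the members, up to 4 genes per list and comparison with the smallest adjusted p, the 5 most and 3 least like each member, and their 3 nearest tested neighbours on each side. Alternatives were median-of-ratios scaling, library totals, no low-count filter, replicate blocks, limma 3.58.1 on log2 of FPKM plus 1 or 0.1, DESeq2 1.42.0 and leaving out each library; offsets for transcript length (lowess span 0.3) were added after the data were seen. Of the table's gene IDs, 31439 matched GENCODE M21, and 90.8% of these had identical starts and ends. With no molecular identifiers, PCR duplicates add to the counts. Figures were drawn with matplotlib 3.10.9 in Python 3.11.15.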

Additional observations from a re-analysis of the deposited data

How the results depend on the processing

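Direction of the members against E4.5 was the same under all 12 or 13 alternatives in each of the 5 diapause groups. Between groups of day 5.5 it reversed in these cases. Dppa1 in reduced against depleted KSOM (0.29) became −0.08 with library totals and −0.10 with limma on FPKM at both pseudocounts. Leaving out 1 library at a time gave −0.76 to 0.68 for Dppa5a in targeted OVX against OVX, −0.38 to 2.79 for Dppa3 in reduced KSOM against OVX, −3.46 to 3.31 for Dppa3 in starvation against OVX and −0.08 to 1.70 for Dppa4 in starvation against OVX. The cause was not tested. The call of Dppa2 in reduced against depleted KSOM was also lost with replicate number as a block (1.56, adjusted p = 0.053), and held with median-of-ratios scaling, no filter, both limma fits, DESeq2 and length offsets. Of 54 calls of list genes and neighbours, none reversed, 12 held without each library and 10 under every alternative.

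Counts of called genes moved more. In the order reduced KSOM, depleted KSOM, starvation, targeted OVX and OVX against E4.5, then reduced KSOM, depleted KSOM, starvation and targeted OVX against OVX, then reduced against depleted KSOM, they were 247, 1201, 483, 581, 445, 44, 148, 49, 8 and 1263. With no low-count filter they were 1226, 2370, 1473, 1638, 1470, 589, 1417, 1091, 636 and 2652. With limma on log2 of FPKM plus 1 they were 2248, 2670, 1799, 2258, 1834, 141, 295, 211, 53 and 1994, and with a pseudocount of 0.1 they were 1641, 2283, 1335, 1866, 1202, 115, 231, 152, 23 and 1993. With DESeq2 they were 1780, 3290, 2299, 2571, 2017, 721, 2008, 1667, 894 and 3617.

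With library totals the count was 545 in reduced KSOM, 230 in starvation and 287 in OVX against E4.5, and 24 in reduced KSOM and 28 in starvation against OVX. The share of calls that were higher against E4.5 then was 15% in reduced KSOM, 27.9% in depleted KSOM, 49.1% in starvation, 14.1% in targeted OVX and 32.1% in OVX, against 68%, 59.8%, 76%, 63% and 76.4% in the reported fit. It became 52.7% and 78.6% in depleted KSOM and starvation against OVX (42.6% and 34.7% in the reported fit) and 38.8% in reduced against depleted KSOM (51.6%). The median of all genes against E4.5 shifted to −0.50, −0.41, −0.17, −0.92 and −0.53. With median-of-ratios scaling 0% of the calls in targeted OVX against OVX were higher (12.5% in the reported fit). With length offsets 15 genes were called in targeted OVX against OVX and 827 in reduced against depleted KSOM.

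Same-numbered libraries of different groups showed little shared deviation (4 of 30 pairs had a correlation above 0.1, range −0.06 to 0.16). Between groups other than reduced KSOM the value was the same for either replicate number, such as 0.16 for OVX with starvation. The pairs are thus not independent, and the check cannot decide whether the numbers pair the samples. With the replicate block, 59 genes were called in reduced KSOM, 311 in starvation and 380 in targeted OVX against E4.5, and 3, 73, 0 and 4 in reduced KSOM, depleted KSOM, starvation and targeted OVX against OVX, and 479 in reduced against depleted KSOM.

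Leaving out 1 library at a time, the counts ran from 9 to 46 in reduced KSOM, 378 to 540 in depleted KSOM, 55 to 1105 in starvation, 82 to 791 in targeted OVX and 109 to 691 in OVX against E4.5. Against OVX they ran from 0 to 229 in reduced KSOM, 41 to 934 in depleted KSOM, 31 to 660 in starvation and 22 to 179 in targeted OVX. In reduced against depleted KSOM they ran from 121 to 225. Where a group then had 1 library, that library was assumed to vary like the other groups.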
